A study of Rattus norvegicus with 18 samples.

Results

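Wsb1 and Wsb2 are a pair of paralogous genes, 2 of the 14217 genes that the array names with a probe set of their own, and were represented by 5 of its 31042 probe sets, 1 for Wsb1 and 4 for Wsb2. The members are every probe set that the platform annotation gave to either gene, and 4 of the 5 were above the filter on dim signal, among 18625 probe sets tested. Wsb1 was chosen by its strain difference in intensity in these same rats, so that difference is given here as a description, without a test, and so is the Wsb2 difference from the same contrast. The tests concern the deposit blocks, the interaction of strain with block, and the relation of Wsb1 to Wsb2.

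The kidneys came from 9 rats of the congenic strain S.SHR(2) and 9 rats of its background strain, the Dahl salt-sensitive rat (Dahl S, SS/Jr), with 1 Affymetrix Rat Genome 230 2.0 array per rat. The congenic was derived from SS/Jr and SHR/NHsd, and its name places the introgressed segment of the spontaneously hypertensive rat on chromosome 2, in a Dahl S background that both groups share. The design text speaks of male rats of 4, 12 and 20 weeks, but the labels give an age and a diet (0.3% NaCl) for 2 Dahl S rats only, replicate 2 at 4 weeks and replicate 4 at 12 weeks. In deposit order the samples form 3 blocks of 6 rats, each 3 of one strain and 3 of the other, and the labels do not say what sets the blocks apart. Rats served as replicates because every title holds a different code, though nothing states whether they came from separate litters.

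The proteins of both genes carry WD40 repeats, which hold a target protein, and a SOCS box, which binds elongin B and elongin C and through them the cullin CUL5 and the RING protein RNF7. Such a complex is a ubiquitin ligase, and the WD40 protein decides what it marks for degradation. In human cells WSB1 has been reported to act on HIPK2, on the von Hippel-Lindau protein VHL and on the thyroid hormone deiodinase DIO2, and its transcript has been reported to respond to hypoxia and to hedgehog signals. WSB2 is less studied, and no established role in the kidney is assumed for either protein.

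In the RefSeq annotation of the assembly GRCr8, Wsb1 is a protein-coding gene of 16287 bases on the minus strand of chromosome 10 (64700752 to 64717038), outside the chromosome for which the congenic is named. Wsb2 spans 20992 bases on the minus strand of chromosome 12 (44878483 to 44899474). A transcribed pseudogene, Wsb1-ps1, lies on chromosome 5 (29676670 to 29691585). Probe sequences were not used here, so signal shared between Wsb1 and this pseudogene cannot be separated and the Wsb1 values are uncertain to that extent. No build is named with the deposited values.

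The 41 bases directly before each annotated gene are shown because the genes share a domain structure and differ in what precedes them. Capitals mark TGACGTCA, the palindromic cAMP response element, which was searched for after the sequence had been seen. Sequences are from RefSeq on GRCr8, written 5′ to 3′ on the strand of the gene.
Wsb1 (chr10:64717039-64717079, minus strand): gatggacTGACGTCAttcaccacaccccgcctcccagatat
Wsb2 (chr12:44899475-44899515, minus strand): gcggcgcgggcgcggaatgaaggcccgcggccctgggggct
The Wsb1 stretch holds the palindrome, which ends 26 bases before the gene, and is 56.1% G or C. The Wsb2 stretch holds no copy and is 82.9% G or C. Among 33469 promoter windows of 300 bases, 1.83% hold TGACGTCA on either strand, as did 1 of 2 windows of Wsb1 and 0 of 1 window of Wsb2. The hypoxia response element core in its form ACGTG, on either strand, is in 19.3% of the windows and in none of these 3. Other forms of that core were not searched for. The matches given here are of letters only.

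Wsb1 signal was lower in S.SHR(2) kidneys than in Dahl S kidneys, rat by rat. The deposited intensities of probe set 1374204_at were 328.0 at the lowest, 444.0 at the median and 483.2 at the highest in S.SHR(2), against 539.3, 600.0 and 679.2 in Dahl S. The brightest S.SHR(2) rat thus lay under the dimmest Dahl S rat. Strain ranges were apart in this way for 19 of the 18625 probe sets tested (0.102%), and since Wsb1 was chosen for this contrast nothing further is read from that. The mean intensity was 431 ± 48.2 in S.SHR(2) and 603 ± 48.4 in Dahl S (SD, n = 9 each), and the difference, S.SHR(2) minus Dahl S, was -0.48 ± 0.07 (SE) on the scale of log2(intensity + 16). This is a fold of 0.715 on that scale. In whole kidney, fewer cells of a type and less RNA per cell cannot be told apart.

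**Figure D1:**
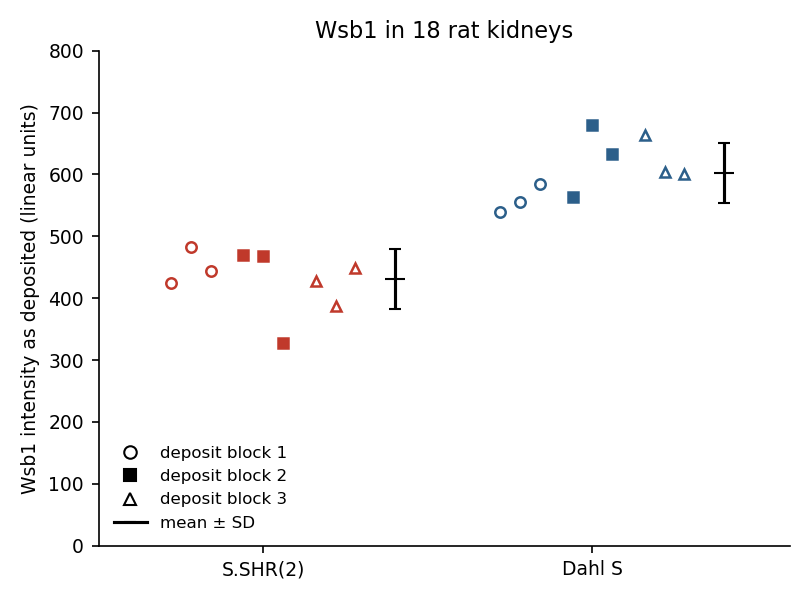
Deposited Wsb1 intensity (linear units, vertical axis) in each of 18 rat kidneys, S.SHR(2) at the left and Dahl S at the right, with point shape for the deposit block and bars for the mean ± SD. S.SHR(2) rats lie between 328.0 and 483.2 and Dahl S rats between 539.3 and 679.2, with no overlap.

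For context, 23 of 18625 probe sets (0.123%) passed an adjusted p under 0.05 between the strains in limma, 19 of them lower in S.SHR(2) (0.102%) and 4 higher (0.0215%). Wsb1 was one of those lower in S.SHR(2), which was the ground for choosing it. The probe set just inside this threshold was 1387276_at of Dclk1, at -0.58, and the one just outside was the unnamed 1395436_at, at 0.94. The size of the difference did not order these calls, since the spread among rats enters as well.

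The values by deposit block are given as a description, since ranges that are apart over all 18 rats are apart in every block as well. In block 1, Wsb1 read 424.4, 483.2 and 444.0 in S.SHR(2) and 539.3, 555.0 and 584.8 in Dahl S. In block 2 it read 469.1, 467.8 and 328.0 in S.SHR(2) and 562.8, 679.2 and 633.8 in Dahl S. In block 3 it read 427.7, 387.7 and 449.3 in S.SHR(2) and 663.5, 604.3 and 600.0 in Dahl S. The lowest reading of the series, S.SHR(2) replicate 6, belongs to block 2. The strain difference within blocks was -0.32, -0.56 and -0.58 for blocks 1, 2 and 3, each with an SE of 0.121. The smaller size in block 1 was not beyond the error, since the strain-by-block interaction had an adjusted p of 0.822 in limma. That interaction was called for 1 of 18625 probe sets (0.00537%), the unnamed 1395436_at.

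No difference of Wsb1 between deposit blocks was called. With the strain accounted for, Wsb1 in block 2 and in block 3 differed from block 1 by 0.01 each (95% interval -0.18 to 0.20 for both), and the limma F test over blocks gave an adjusted p of 0.993. Differences between blocks were called for 9336 of 18625 probe sets (50.1%), and 99.8% of all probe sets had a smaller block p than Wsb1. That place is in part set by the choice of Wsb1. It was chosen from a fit of strain alone, where shifts between blocks count as error, which favours probe sets with small shifts. The same limit holds for its interaction test. The intervals still allow block differences of up to about 0.20 on the log2 scale. Means by block were 451, 422 and 422 in S.SHR(2), against 560, 625 and 623 in Dahl S, a lean in opposite directions that was not beyond error in the interaction test above.

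The strains overlapped for Wsb2. Its brightest probe set, 1398424_at, read 516.3, 615.5 and 762.9 at the lowest, median and highest in S.SHR(2), against 516.1, 613.4 and 672.5 in Dahl S. The ranges overlapped over most of their length, and the medians were nearly equal. Mean intensities were 625 ± 84.4 in S.SHR(2) and 593 ± 52.5 in Dahl S (SD, n = 9 each), a log2 difference of 0.05 ± 0.08 (SE). Within blocks 1, 2 and 3 the difference was 0.04, 0.01 and 0.11 (SE 0.105), with an interaction adjusted p of 0.953 in limma.

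The other Wsb2 probe sets were dimmer and also overlapped between strains. Probe set 1385460_at read 118.8 to 176.0 in S.SHR(2) (median 140.6) and 104.1 to 191.3 in Dahl S (median 141.6), a log2 difference of 0.05 ± 0.11 (SE). Probe set 1383451_at read 89.8 to 164.7 in S.SHR(2) (median 135.5) and 116.9 to 179.1 in Dahl S (median 144.5), a log2 difference of -0.10 ± 0.11 (SE). Over all rats both lay within about 1 SE of 0, and their signs opposed one another. Within blocks 1, 2 and 3 the difference was 0.14, 0.17 and -0.16 for 1385460_at (SE 0.175). For 1383451_at it was -0.32, -0.02 and 0.05 (SE 0.168). The interaction was called for neither (limma adjusted p 0.844 for 1385460_at and 0.822 for 1383451_at). The fourth, 1397504_at, was under the filter, at 3.8 to 26.2 in S.SHR(2) and 4.6 to 30.1 in Dahl S, and was not tested.

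**Figure D2:**
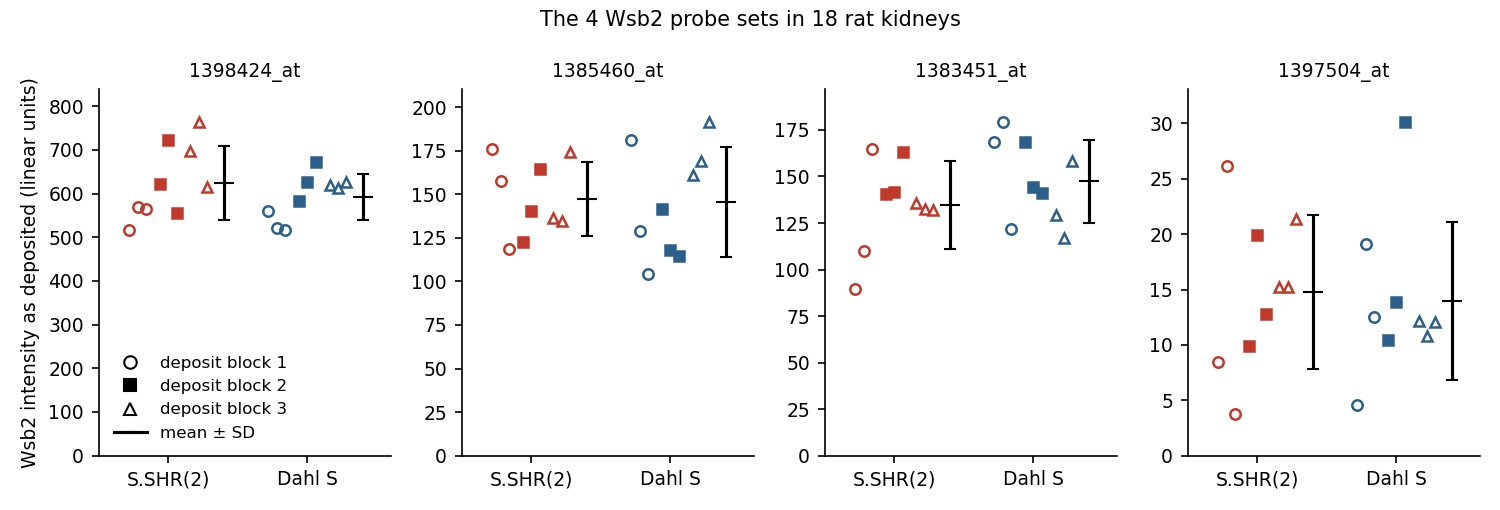
Deposited intensity (linear units, vertical axis, a separate scale for each panel) of the 4 Wsb2 probe sets in each of 18 rat kidneys, S.SHR(2) left of Dahl S, with point shape for the deposit block and bars for the mean ± SD. The strains overlap in every panel, and 1397504_at reads no higher than 30.1.

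Between deposit blocks the brightest Wsb2 probe set was called, and whether its shift differed from that of Wsb1 was not tested. Values of 1398424_at were 516.1 to 568.8 in block 1 over both strains, 555.4 to 721.8 in block 2 and 613.4 to 762.9 in block 3. Blocks 1 and 3 did not overlap, but the share of all probe sets apart in this way was not counted, so nothing is read from that. Relative to block 1, Wsb2 was higher by 0.20 in block 2 (95% interval 0.04 to 0.35) and by 0.24 in block 3 (0.08 to 0.39), each with an SE of 0.07, and the limma F test passed with an adjusted p of 0.0189. Since 50.1% of probe sets passed this test, a call between blocks does not set Wsb2 apart. The dimmer probe sets did not pass it, with adjusted p values of 0.245 for 1385460_at and 0.444 for 1383451_at.

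The Wsb2 probe sets did not track one another. Within S.SHR(2), Pearson r over 9 rats was -0.54 between 1383451_at and 1385460_at, 0.39 between 1383451_at and 1398424_at and -0.45 between 1385460_at and 1398424_at. Within Dahl S the same pairs had r of 0.19, -0.16 and 0.22. No pair kept its sign in both strains, so a statement on Wsb2 holds for the probe set named and not for the gene as a whole.

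**Figure D3:**
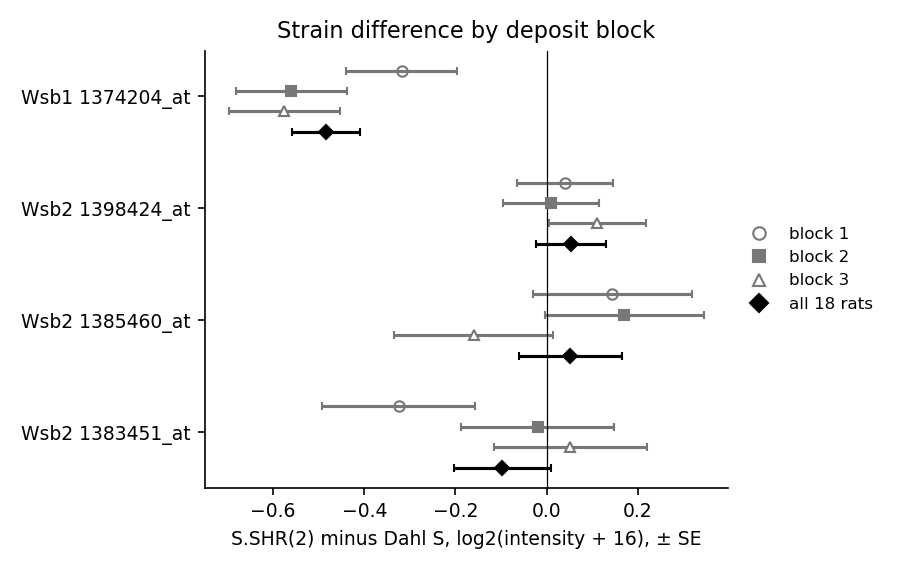
Strain difference, S.SHR(2) minus Dahl S, on the log2(intensity + 16) scale (horizontal axis, ± SE) for Wsb1 and the 3 tested Wsb2 probe sets, within each deposit block in grey and over all 18 rats in black. Wsb1, chosen by this contrast, lies between -0.58 and -0.32 in the blocks, and the Wsb2 probe sets lie near 0 over all rats. Within blocks the Wsb2 probe sets run from -0.32 (1383451_at, block 1) to 0.17 (1385460_at, block 2).

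Whether Wsb1 and Wsb2 varied together within a strain depended on the scaling, on the Wsb2 probe sets used and on the treatment of deposit block. Over 9 S.SHR(2) rats, Pearson r between Wsb1 and 1398424_at was 0.0745 (exact permutation p = 0.854, two-sided) and Spearman rho was 0.1 (exact permutation p = 0.81). Over 9 Dahl S rats r was 0.669 (exact permutation p = 0.0508) and rho 0.717 (exact permutation p = 0.0369). After Benjamini-Hochberg adjustment over these 4 tests, both Dahl S values had an adjusted exact permutation p of 0.102, and both S.SHR(2) values one of 0.854. The permutations paired all 9 rats of a strain freely across deposit blocks, so block shifts common to both genes enter these p values. That limit holds for the p values after other scalings too. With arrays centred on their medians in place of quantile normalization, the Dahl S value was 0.745 and passed (adjusted exact permutation p = 0.0454, with 0.0454 to 0.575 over all its alternatives). With the mean of each gene's tested probe sets the sign turned, to -0.471 in S.SHR(2) and -0.228 in Dahl S. Without the 2 rats farthest from the median of Wsb1, r over the remaining 7 was 0.193 in S.SHR(2) and 0.724 in Dahl S. With values centred on strain and deposit block, r was 0.463 in S.SHR(2) and 0.352 in Dahl S, and the difference between the strains was not tested. Against the dimmer probe sets r ran the other way, at -0.32 in S.SHR(2) and -0.52 in Dahl S for 1383451_at, and at -0.34 and -0.24 for 1385460_at in the same order of strains.

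To describe which transcripts resembled Wsb1, each of 10482 other genes was correlated with it over the 9 rats of each strain, and genes were ordered by the lower of the 2 values of r. The rats of a strain share their deposit blocks and each r comes from the same arrays, so these values describe likeness and carry no test. Median r over all genes was -0.02 in S.SHR(2) (quartiles -0.23 and 0.20) and 0.01 in Dahl S (quartiles -0.34 and 0.35). An r of at least 0.5 was reached by 418 genes in S.SHR(2), by 1556 in Dahl S and by 40 in both (0.382%). Across genes the r of one strain and the r of the other correlated at -0.11, genes not being independent replicates.

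Likeness to Wsb1 in one strain therefore said little about the other. The 50 genes most like Wsb1 in S.SHR(2), all with r of at least 0.717 there, had a median r of -0.0866 in Dahl S. The 50 most like it in Dahl S, with r of at least 0.834, had a median r of 0.0335 in S.SHR(2). In both cases the median lay near that of all genes.

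**Figure D4:**
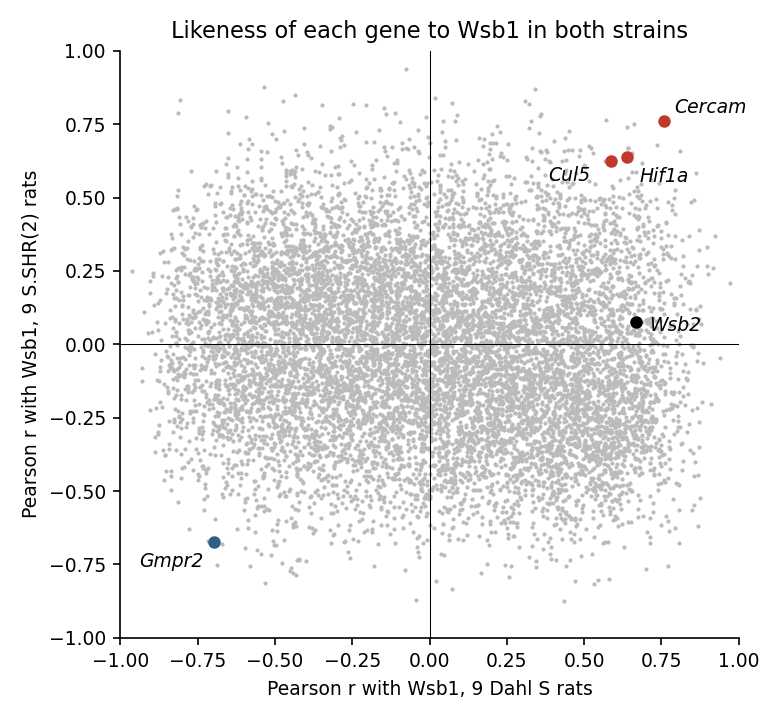
Pearson r of each of 10482 genes with Wsb1, over 9 S.SHR(2) rats (vertical axis) and over 9 Dahl S rats (horizontal axis), 1 point per gene, with a few named genes coloured. The cloud shows no rising trend (r across genes -0.11), Wsb2 lies at 0.07 in S.SHR(2) and 0.67 in Dahl S, and Cercam, Hif1a and Cul5 lie at the upper right.

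The 10 genes highest by that rule were Cercam, Zfp770, Scn3b, Ostm1, Smc5, Prpf4b, Kif21a, Ssr1, Hif1a and Tbk1. Cercam, a dim transcript of 31.9 ± 13.7 units in S.SHR(2) and 32.6 ± 10.1 in Dahl S (SD, n = 9 each), led with r of 0.76 in S.SHR(2) and 0.76 in Dahl S. Scn3b, a sodium channel beta subunit, was also dim, at 41.3 ± 12.2 units in S.SHR(2) and 40.8 ± 12.7 in Dahl S. Its r was 0.75 in S.SHR(2) and 0.66 in Dahl S. Prpf4b, a kinase of the spliceosome, had 0.67 and 0.64 in the same order. Ostm1, a partner of the lysosomal chloride transporter, had 0.66 in S.SHR(2) and 0.81 in Dahl S, and Tbk1, an innate immune kinase, 0.62 in S.SHR(2) and 0.69 in Dahl S. The 10 genes have no single role in common by their names, and 0 of them were called between strains, against 0.123% of all probe sets. Between blocks 1 was called, Smc5 of the SMC5/6 complex, against 50.1% of all probe sets. The order rests on likeness to Wsb1, itself not called between blocks, so that count is in part set by the choice.

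Hif1a encodes the oxygen-regulated subunit of hypoxia-inducible factor, which in human cells has been reported to drive WSB1. Its intensity was 859.0, 1092.5 and 1189.6 at the lowest, median and highest in S.SHR(2), against 967.2, 1126.5 and 1250.4 in Dahl S. The strains overlapped, and the log2 difference of -0.12 ± 0.08 (SE) was not called. Its r with Wsb1 was 0.64 in S.SHR(2) and 0.64 in Dahl S. The S.SHR(2) value rested on replicates 6 and 8, the lowest rats for both genes: without them r over 7 rats was -0.0854, and without the 2 farthest Dahl S rats r was 0.358. These are transcript levels of both genes and say nothing of the amount or activity of the Hif1a protein.

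Cul5, the cullin that holds Wsb1 in its ligase, was the 12th gene in the order. It read 250.8, 340.2 and 401.4 at the lowest, median and highest in S.SHR(2), against 300.4, 375.8 and 442.8 in Dahl S. The strains overlapped, and the log2 difference of -0.11 ± 0.09 (SE) was not called. Its r with Wsb1 was 0.63 in S.SHR(2) and 0.59 in Dahl S (rho 0.83 and 0.38 in the same order), and without the 2 farthest rats of each strain it was 0.841 in S.SHR(2) and 0.514 in Dahl S. A second, dimmer Cul5 probe set, 1369068_at, had a strain difference of 0.01 ± 0.15 (SE).

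**Figure D5:**
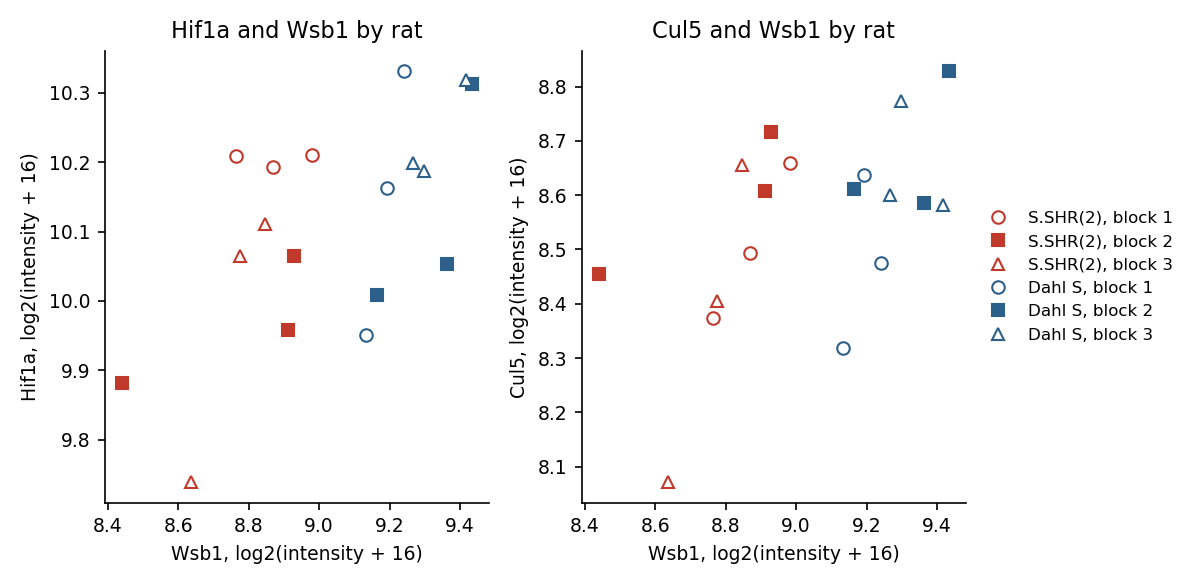
Hif1a (left panel) and Cul5 (right panel) against Wsb1 in each of 18 rats, all on the log2(intensity + 16) scale after normalization, red for S.SHR(2) and blue for Dahl S, with point shape for the deposit block. The 2 S.SHR(2) rats with the least Wsb1 are at the lower left for Hif1a. Without them r in S.SHR(2) is -0.0854 for Hif1a and 0.841 for Cul5.

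Leaving out the 2 rats farthest from the median of Wsb1 in each strain lowered most of the 10 values. An r of at least 0.5 was then kept by 3 of the 10 in S.SHR(2), by 7 in Dahl S and by 2 in both strains. Those 2 were Prpf4b, with 0.738 in S.SHR(2) and 0.566 in Dahl S, and the dim Scn3b, with 0.546 in S.SHR(2) and 0.741 in Dahl S. Over the 10 genes the values then ran between -0.233 and 0.738 in S.SHR(2) and between 0.168 and 0.817 in Dahl S. With values centred on strain and block over all 18 rats, the 10 genes had r of 0.601 to 0.723, and 7 of them were among the 100 genes highest by that measure. The 10 were chosen by likeness over these same rats, so high centred values are largely set by the choice.

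At the other end, an r of -0.5 or lower in both strains was found for 42 genes. The 5 lowest were Snx17, Gmpr2, Idnk, Ccdc3 and Gatc. Gmpr2, a GMP reductase, had r of -0.67 in S.SHR(2) and -0.70 in Dahl S, and Snx17, a sorting nexin of endosomes, had -0.75 and -0.69 in the same order. None of the 5 was called between strains, against 0.123% of all probe sets.

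Genes that act with Wsb1 and Wsb2 were followed through 7 lists of 162 genes, of which 119 were tested and 0 were called between strains in limma, against 0.123% of all probe sets. At an unadjusted p under 0.05 there were 10 of the 119, against 4.02% of all probe sets. Among all 10482 genes, 4544 had a difference below 0, with a median of 0.02. The subunits of the CUL5 ligase and the neddylation enzymes that switch it on gave 22 tested genes of 23, 11 with a difference below 0 and a median of 0.00. Elongin B (Elob) differed by 0.06 ± 0.09, elongin C (Eloc) by -0.02 ± 0.07, Rnf7 by 0.08 ± 0.07 and Arih2, the ligase that works with CUL5, by 0.02 ± 0.10 (log2, SE). All 4 lay within about 1 SE of 0. Between deposit blocks 11 of the 22 were called, near the 50.1% of all probe sets.

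The other proteins with a SOCS box gave 20 tested genes of 35, 7 of them below 0, with a median of 0.04. Asb8 differed by 0.06 ± 0.05, Spsb1 by -0.06 ± 0.11 and Socs3, a feedback inhibitor of cytokine receptors, by -0.02 ± 0.17, while Socs2 was under the filter. Cish, a SOCS-box inhibitor of growth hormone and interleukin signalling, stood at the top of the list. Its brightest probe set, 1378586_at, read 133.4, 252.9 and 358.5 at the lowest, median and highest in S.SHR(2), against 69.4, 87.2 and 351.5 in Dahl S. The strains overlapped through Dahl S replicates 6 and 7, at 351.5 and 182.4, while the other Dahl S rats read 108.5 or less. The log2 difference of 1.09 ± 0.23 (SE) did not pass, with an adjusted p of 0.0813 in limma. It passed with deposit block as a covariate (adjusted p = 0.00871 in limma, where 92 of 18625 probe sets or 0.494% were called), without Dahl S replicate 6 (1.28, adjusted p = 8.31e-04) and without S.SHR(2) replicate 2 (1.19, adjusted p = 0.0486). Over all 25 alternatives the limma adjusted p ran from 8.31e-04 to 0.205, under 0.05 in 3. A second Cish probe set, 1388233_at, differed by 0.58 ± 0.27.

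Of 7 proteins reported as targets of human WSB1 or WSB2, 3 were tested and none passed between strains. The kinase gene Hipk2 differed by 0.04 ± 0.13 and Vhl by 0.09 ± 0.08 (log2, SE). These are transcript levels and say nothing of the proteins, on which a ubiquitin ligase acts. Dio2 was under the filter, and Atm, Lrrk2 and Pmaip1 had no probe set that named them alone.

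The list of hypoxia-inducible factor and its targets gave 27 tested genes of 33, 13 below 0, with a median of 0.01. Epas1, the HIF-2 alpha subunit, differed by 0.01 ± 0.09, Vegfa by -0.07 ± 0.08, the prolyl hydroxylase gene Egln3 by 0.12 ± 0.17, Bnip3 by 0.05 ± 0.07 and the glucose transporter gene Slc2a1 by 0.03 ± 0.09. All 5 lay within 1 SE of 0. Between blocks 16 of the 27 were called (59.3%), against 50.1% of all probe sets, while Hif1a itself was not (adjusted p = 0.402 in limma).

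Hedgehog genes were mostly dim in these kidneys, with 5 of 16 tested, 1 below 0, and a median of 0.11. Ihh, a hedgehog ligand, read 98.5 ± 18.8 in S.SHR(2) and 74.8 ± 28.3 in Dahl S, and Smo, the signal-transducing membrane protein, 66.9 ± 14.8 in S.SHR(2) and 53.6 ± 17.9 in Dahl S (SD, n = 9 each). Their log2 differences of 0.40 ± 0.15 and 0.31 ± 0.14 (SE) did not pass. Shh, Gli1 and Hhip were under the filter and Ptch1 had no probe set that named it alone.

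Thyroid hormone genes gave 15 tested of 18, 5 below 0, with a median of 0.09. Dio1, the deiodinase of kidney and liver, differed by 0.16 ± 0.15, and the receptors Thra and Thrb by -0.04 ± 0.11 and 0.04 ± 0.07. None passed the test.

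Splicing regulators were included because their transcripts, like those of WSB1 in human cells, occur in alternatively spliced forms. Of 30 genes 27 were tested, and 21 lay below 0 with a median of -0.07, against 4544 of 10482 and 0.02 for all genes. These genes are not independent of one another, and the list was chosen with earlier results of these data known. The count therefore carries no test. Srsf5, a splicing factor of the SR family, differed by -0.31 ± 0.11, and the kinases Clk1 and Clk4, which phosphorylate SR proteins, by -0.21 ± 0.14 and -0.21 ± 0.10 (log2, SE). None of the 27 passed the test between strains. Luc7l3 differed by -0.07 ± 0.12, Rbm39 by 0.04 ± 0.10 and Ddx17 by -0.01 ± 0.18. Their median r with Wsb1 was 0.218 in S.SHR(2) and 0.346 in Dahl S, against -0.02 and 0.01 for all genes, and 0.300 with values centred on strain and block. Together with Cul5 and Hif1a, the splicing regulator Rbm25 was 1 of 3 list genes with r of at least 0.5 in both strains, at 0.51 in S.SHR(2) and 0.68 in Dahl S, and without the 2 farthest rats of each strain these were 0.172 and 0.557.

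None of the genes beside Wsb1 was called between strains. Of the 20 nearest tested genes on chromosome 10, 10 on each side, 0 were called in limma, against 0.123% of all probe sets. At an unadjusted p under 0.05 there was 1, against 4.02% of all probe sets. Differences below 0 numbered 5, against 4544 of 10482 genes, and the range was -0.23 to 0.27 with a median of 0.03. With so small a share of calls, 0 among 20 genes does not set apart the surroundings of Wsb1 or of Wsb2. On one side lie Ksr1 at 0.26 ± 0.24 and Lgals9 at -0.23 ± 0.18, on the other Evi2b at -0.17 ± 0.17 and Evi2a at 0.05 ± 0.24 (log2, SE). Around Wsb2 on chromosome 12, 0 of 20 genes were called and the differences ran from -0.13 to 0.19, with Rfc5 at 0.02 ± 0.08 and Fbxo21 at 0.16 ± 0.15 on one side and Vsig10 at -0.04 ± 0.09 and Pebp1 at 0.03 ± 0.08 on the other.

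The tissue label was borne out by its markers in both strains. Median intensity of Umod, the defining transcript of the thick ascending limb, was 6750 in S.SHR(2) and 6652 in Dahl S, and that of the proximal tubule gene Slc34a1 was 7925 and 7324 in the same order. The adrenal gene Cyp11b1 had medians of 1.3 in S.SHR(2) and 6.6 in Dahl S and the B cell gene Cd79b 4.9 and 6.3, all under the filter. Other markers from outside the nephron were above it. The blood gene Hbb had medians of 2788 in S.SHR(2) and 2781.5 in Dahl S. The macrophage gene Csf1r had 198.3 and 200.4, and the fat gene Adipoq 43.8 and 42.1, in the same order. Of 20 tested markers of kidney and other cell types 0 were called between strains in limma, against 0.123% of all probe sets. An unadjusted p under 0.05 was found for 1 of them, against 4.02% of all probe sets. The GAPDH 3′/5′ ratio, a measure of RNA quality, ran from 1.27 to 2.51 in S.SHR(2) and from 1.19 to 2.04 in Dahl S, and the strain difference of Wsb1 was -0.46 without the 2 arrays highest in it. With the beta-actin 3′/5′ ratio as a covariate it was -0.50.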

How the data were processed

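Whole-kidney RNA of 18 rats was labelled and hybridised to 1 array each, per the labels' protocols. The intensities that the authors deposited, 1 linear value per probe set and array, were used; how they were computed from the scans, and with which program, is not given in the sources. Their mean after trimming 2% from each end was 150 on every array, and array medians ran from 41.35 to 51.5, no 2 arrays being identical. Precision is limited by the number of arrays.

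The 57 control probe sets were left out. Values were transformed as log2(intensity + 16), which understates the change of dim genes, and quantile normalized, since array medians spanned 0.235 on the log2 scale, over the limit of 0.2. The dimmest 40% (mean under 5.48) were left out. Models were fitted to all 18625 remaining probe sets with limma 3.58.1 in R 4.3.3 (lmFit, eBayes with trend), with Benjamini-Hochberg adjustment over all of them. Strain was fitted alone, deposit block with strain, and then their interaction. A call is an adjusted p under 0.05. Errors of log2 differences are SEs and those of intensities SDs.

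In the platform annotation 20826 probe sets named 1 gene, 436 several and 9780 none, and 20758 matched the gene table of GRCr8. Each of 10483 tested genes stands for the brightest of the probe sets that name no other gene. Named genes were the members, the core genes of each list, the nearest genes on either side of the members, and the 10 highest and 5 lowest by likeness; Dclk1, 1395436_at, Rbm25 and second probe sets were added after their values were seen. The value of 1 core gene is not reported here. The members and lists were chosen with earlier results of these data known. Scripts were tested on simulated data. Figures used matplotlib 3.10.9. Alternatives are given in the closing section.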

Additional observations from a re-analysis of the deposited data

Results flagged for a closer look

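Within each strain, the highest and the lowest rat of every member and named gene were set against the rest with Dixon's criterion for 9 values. Of 96 groups of 9 rats, 3 held a rat whose gap to its neighbour exceeded the 95% critical share of the range, and chance gives about 1 in 20. Vhl (1368076_at) read 823.1 in S.SHR(2) replicate 1, with the next rat at 625.1. Dio1 (1369259_at) read 120.5 in Dahl S replicate 3, with the next rat at 179.1. Idnk (1395440_at) read 58.2 in Dahl S replicate 5, with the next at 93.2. S.SHR(2) replicate 1 and Dahl S replicate 5 also had the highest GAPDH 3′/5′ ratio of their strain, 2.51 and 2.04, and its part in these readings was not tested. No probe set of Wsb1 or Wsb2 was among the 3.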

How the results depend on the processing

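The strain difference of Wsb1 was between -0.50 and -0.43 under other pseudocounts, filters and scalings, -0.51 to -0.44 with each rat left out in turn, and -0.317 within deposit block 1. That of Wsb2 (1398424_at) was 0.03 to 0.09 with each rat left out, and its block difference passed in all 18 such fits (limma adjusted p 0.0101 to 0.0447). The strain difference of 1383451_at was -0.324 within deposit block 1. The correlation of Wsb1 with Wsb2 in Dahl S was 0.745 with arrays centred on their medians (adjusted exact permutation p = 0.0454), and with the mean of each gene's tested probe sets it was -0.471 in S.SHR(2) and -0.228 in Dahl S. Centred on strain and deposit block it was 0.463 in S.SHR(2) and 0.352 in Dahl S. Probe sets called between strains numbered 41 with array weights, 92 with deposit block as a covariate and 16 to 31 with each rat left out. Interactions called numbered 2 with array weights and 1 to 3 with each rat left out, and block calls 8633 to 9574. Uncalled list genes near 0 changed sign: Socs3 to 0.00313 (pseudocount 1); Eloc to 0.00909 and Arih2 to -0.00439 (pseudocount 64); Eloc to 0.00940 and Arih2 to -0.00726 (without quantile normalization); and, after median centring, Eloc to 0.0530, Vegfa to 0.00286, Luc7l3 to 0.00200 and Ddx17 to 0.0120. With each rat left out the ranges were -0.0345 to 0.0623 for Arih2, -0.0870 to 0.0621 for Ddx17, -0.0506 to 0.0119 for Eloc, -0.0407 to 0.0648 for Epas1, -0.0318 to 0.0978 for Hipk2, -0.124 to 0.0178 for Luc7l3, -0.0132 to 0.113 for Rbm39, -0.00552 to 0.0693 for Slc2a1, -0.115 to 0.0319 for Socs3, -0.145 to 0.000233 for Spsb1 and -0.0966 to 0.0266 for Thra. The cause of these changes was not tested. Of the 10 genes most like Wsb1, 0 were among the 10 highest with values centred on strain and block. No paired analysis was possible because the labels do not match rats of one strain to rats of the other. The replicate numbers used here follow deposit order within each strain. The fits by RNA quality ratio were chosen after seeing the data. With 1 probe set for Wsb1, transcript forms cannot be told apart.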
